A study of Mus musculus with 8 samples.

Results

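The genes described here are 10 that control passage through the G1 phase of the cell cycle, measured in mouse pancreatic stellate cells (PSCs). They were taken from the count table by symbol, from a set drawn up with earlier results of these data known, and comprise the D-type cyclins Ccnd1, Ccnd2 and Ccnd3, the kinases Cdk4 and Cdk6, the INK4 inhibitors Cdkn2a, Cdkn2b and Cdkn2c, and the CIP/KIP inhibitors Cdkn1a and Cdkn1b. All 10 were found in the count table, which lists 12160 genes.

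PSCs are stromal cells of the pancreas and are among the cells from which its cancer-associated fibroblasts can arise. The cells sequenced were an immortalized mouse line, so that their growth controls need not be those of primary PSCs. They were seeded (20000 cells per the labels, another number in the study's methods) in growth factor reduced Matrigel, grown for 4 days (DMEM with serum), and then given one of 3 media for a further 4 days. The first, shBrca2-CM (3 libraries), was conditioned by organoids of KPC mouse pancreatic cancer cells carrying an shRNA against Brca2. The second, shControl-CM (3 libraries), came from KPC organoids carrying a non-targeting shRNA. The third is called control medium here (2 libraries). Its treatment label says that it was conditioned by the PSCs themselves, while the sample titles and the study's results name it DMEM or growth medium. The PSCs carried no shRNA in any group, since the knockdown was in the cancer cells that made the medium, and the level of Brca2 in those organoids was not measured in these libraries. The study names the replicates as independent domes of the 1 line. P-values therefore measure the spread between domes and not between animals. How many preparations of each conditioned medium were used is not given in the sources used here. The p-values thus need not cover the spread between preparations or organoid lines.

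D-type cyclins are made in response to growth factors and bind CDK4 or CDK6, and the complex phosphorylates the retinoblastoma protein RB and its relatives, which frees E2F factors to switch on genes of S phase. INK4 proteins bind CDK4 and CDK6 and keep the cyclin out, whereas the CIP/KIP proteins p21 (Cdkn1a) and p27 (Cdkn1b) bind cyclin-CDK complexes and mainly block those with CDK2. In fibroblasts, cyclin D1 follows serum and adhesion signals, and INK4 genes and Cdkn1a are known for their part in culture arrest and senescence.

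On the mouse build GRCm38.p6 (the release of mm10 used by RefSeq), Ccnd1 lies at chr7:144929931-144939831, Ccnd2 at chr6:127125162-127152188 and Ccnd3 at chr17:47505051-47599689. Cdk4 is at chr10:127063535-127067288 and Cdk6 at chr5:3341004-3531008. Cdkn2a (chr4:89274473-89294619) and Cdkn2b (chr4:89306289-89311032) are neighbours, and Cdkn2c is farther along the same chromosome (chr4:109660876-109666756). Cdkn1a lies at chr17:29090979-29100722 and Cdkn1b at chr6:134920401-134925525. Cdkn2a makes p16INK4a and p19ARF from different first exons that share their 3′ part. Libraries of mRNA 3′ ends cannot tell these products apart, and the value given for Cdkn2a is that of the locus.

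Cdk4, Cdkn2b and Cdkn2c fell in both conditioned media and have a promoter in the RefSeq table, so their promoters are shown together. The table held 12 promoters of 8 of the 10 genes, each of 300 bases, 250 before and 50 after the annotated start (GRCm38.p6). Ccnd1 and Ccnd2 had no entry. Both strands were searched for the Sp1 box GGGCGG, the E-box CACGTG that MYC and related factors bind, the E2F sites TTTGGCGC and TTTCGCGC, the AP-1 site TGANTCA and the heat shock element core GAANNTTC. Capitals mark every match, and matches may overlap. For Cdkn2c the upstream one of 2 annotated starts is shown.
Cdk4, chr10:127063285-127063584, + strand: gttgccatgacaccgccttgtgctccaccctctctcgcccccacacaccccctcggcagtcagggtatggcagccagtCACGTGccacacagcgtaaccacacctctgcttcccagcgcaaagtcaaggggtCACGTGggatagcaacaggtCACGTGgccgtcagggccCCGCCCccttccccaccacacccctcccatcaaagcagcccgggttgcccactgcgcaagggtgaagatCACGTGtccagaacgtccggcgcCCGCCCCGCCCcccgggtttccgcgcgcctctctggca
Cdkn2b, chr4:89310983-89311282, − strand: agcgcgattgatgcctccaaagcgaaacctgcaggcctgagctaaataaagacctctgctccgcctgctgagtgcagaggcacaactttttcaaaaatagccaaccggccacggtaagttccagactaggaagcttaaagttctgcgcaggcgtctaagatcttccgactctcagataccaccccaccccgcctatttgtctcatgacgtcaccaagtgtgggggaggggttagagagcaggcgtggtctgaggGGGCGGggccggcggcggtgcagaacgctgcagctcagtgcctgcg
Cdkn2c, chr4:109666707-109667006, − strand: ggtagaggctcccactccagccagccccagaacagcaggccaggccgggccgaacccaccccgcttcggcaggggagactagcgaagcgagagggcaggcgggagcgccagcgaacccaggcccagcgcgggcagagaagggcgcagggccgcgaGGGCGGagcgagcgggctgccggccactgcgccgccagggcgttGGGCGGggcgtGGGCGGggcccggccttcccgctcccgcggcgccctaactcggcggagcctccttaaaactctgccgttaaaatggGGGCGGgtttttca
The Cdk4 promoter held 4 E-boxes, which begin at positions 79, 133, 153 and 240 counted from 1 at the 5′ end of the window, and 3 Sp1 boxes, of which 2 share a base. The Cdkn2b window held 1 Sp1 box and the Cdkn2c window 4, and neither held an E-box. The window of the other Cdkn2c start held no Sp1 box and 1 E-box. None of the 3 windows printed had a match to the E2F, AP-1 or heat shock letters. Of all 32817 promoters of this length in the table, 35.6% held the Sp1 box, 7.15% the E-box, 0.814% an E2F site, 7.81% the AP-1 site and 7.86% the heat shock core. The matches describe the sequence, and binding was not measured in these libraries.

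Depth differed between the groups. Per library the reads counted came to 4623846 and 5476988 in the control medium libraries, 1093609 to 1624392 in those of shControl-CM, and 655996 to 1095534 in those of shBrca2-CM. A floor of 3 counts was worth between 0.521 CPM in the deepest library and 4.34 CPM in the shallowest. CPM stands for the read count scaled to a common library total with edgeR's TMM factors over all 8 libraries. All 12 stellate and fibroblast markers had counts in every library, with summed levels of 9013 to 10840 CPM in control medium, 5678 to 6670 CPM in shControl-CM and 5069 to 5728 CPM in shBrca2-CM. Of 20 markers of epithelial, acinar, endothelial and immune cells, 6 were in the table and 14, among them Epcam, Cdh1, Pecam1 and Ptprc, were not analysed here. The 6 summed to 93.7 and 97.8 CPM in control medium, 103 to 116 CPM in shControl-CM and 117 to 136 CPM in shBrca2-CM, and Kdr, the endothelial one, was at 0 in 5 of the 6 conditioned medium libraries. The part of depth and of these markers in the results was not tested, beyond the values given for libraries of equal depth. In cultures sequenced in bulk, fewer cells with a transcript and less of it per cell cannot be told apart.

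**Figure D1:**
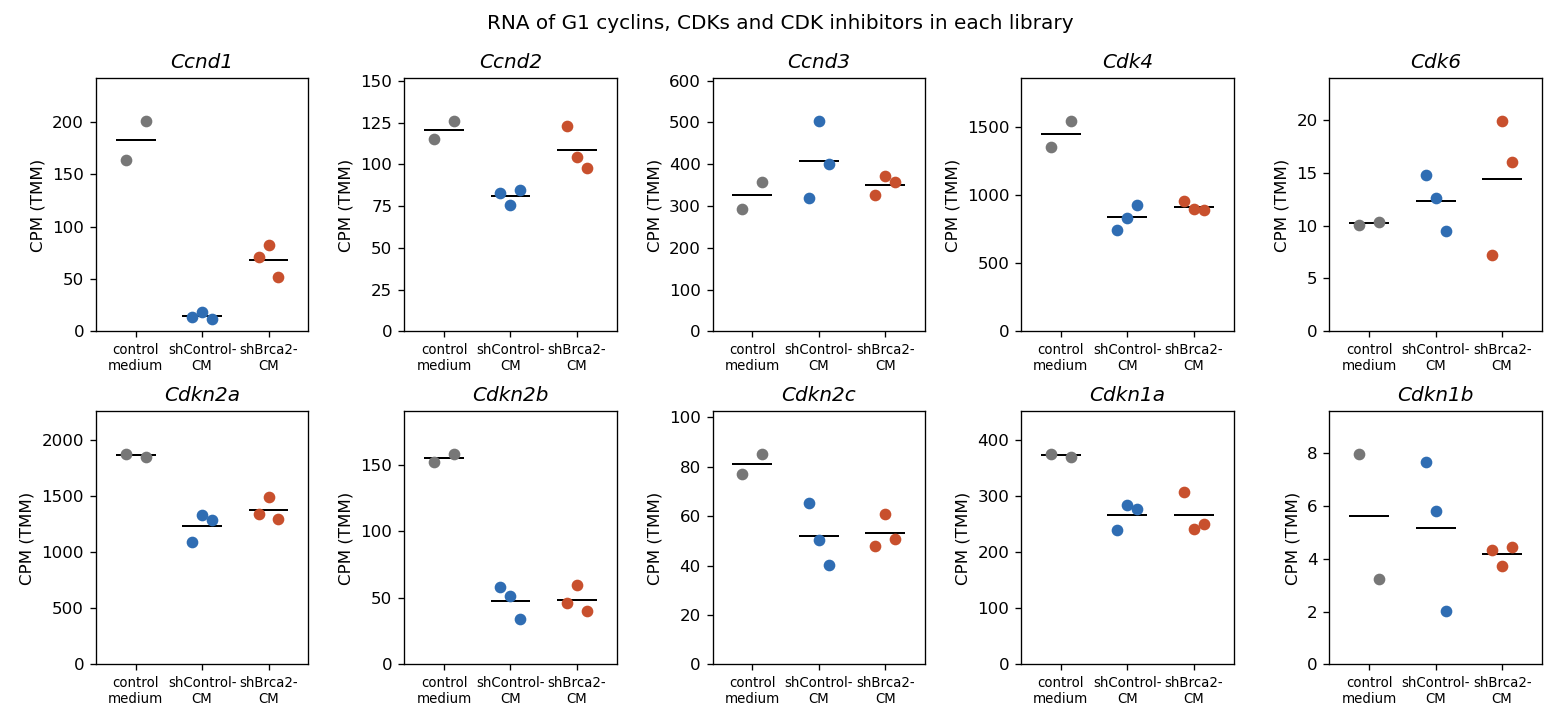
CPM (linear axis, TMM-scaled, starting at 0) of each of the 10 genes in each of the 8 libraries, with 1 point per library and a bar at the group mean. Ccnd1 forms 3 separate levels, Cdkn2b is high with control medium and low with both conditioned media, and the conditioned media overlap for the INK4 and CIP/KIP genes.

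The first question was which of these genes told the 2 conditioned media apart. Their organoids differed by design in the shRNA, and other differences between the media cannot be told apart from the knockdown of Brca2 here. Of the 10 genes 1 was called, Ccnd1, which was higher with shBrca2-CM, against 3.13% of the 11035 genes tested (1.58% called higher and 1.55% called lower). A gene was called by edgeR's quasi-likelihood test where the Benjamini-Hochberg adjusted p was under 0.1, the log2 fold change was over 0.5 in size and the mean normalized count was over 5. The median log2 fold change of the 10 genes was 0.10, beside 0.03 for all genes tested.

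Ccnd1 encodes cyclin D1, the D-type cyclin most closely tied to growth factor signalling. Its level was 70.9, 82.1 and 51.5 CPM in the shBrca2-CM libraries and 13.5, 18.4 and 12.2 CPM in the shControl-CM libraries. In control medium it was 164 and 201 CPM. The 3 groups did not overlap, with shControl-CM lowest and shBrca2-CM between it and control medium. Groups did not overlap for 19.8% of all genes tested between the conditioned media. Against control medium this share was 59.9% with shControl-CM and 57.4% with shBrca2-CM. The counts behind these levels were 49, 66 and 58 reads, 21, 19 and 18 reads, and 942 and 936 reads, respectively. Between the conditioned media Ccnd1 was 4.74-fold higher with shBrca2-CM (log2 2.25 ± 0.26, SE, edgeR adjusted p = 7.01e-04), the 39th largest absolute change among the 345 called genes. It was called in all 15 alternative analyses, including that of libraries thinned to equal depth and each of those that left out 1 library, with log2 fold changes of 2.09 to 2.43. Of the epithelial markers, Krt19 had the same order of groups at low counts, with 4, 13 and 15 in shBrca2-CM, 4, 4 and 3 in shControl-CM and 140 and 118 in control medium (log2 2.12 between the conditioned media, edgeR adjusted p = 0.0632, called in 8 of 14 alternatives). DESeq2 did not call Krt19. Krt18 had another order, lowest in control medium (12.2 and 14.4 CPM on average in shControl-CM and shBrca2-CM, and 2.20 CPM in control medium), and was not called between the conditioned media (0.26, edgeR adjusted p = 0.866). Sox9 averaged 23.6 CPM in shBrca2-CM, 13.9 CPM in shControl-CM and 14.3 CPM in control medium, and was not called between the conditioned media (0.78, edgeR adjusted p = 0.356, unadjusted p = 0.044). The part of these markers in the Ccnd1 result was not tested. Of the 12 stellate markers 1 was higher and 2 were lower with shBrca2-CM.

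Ccnd1 overlaps the gene listed as LTO1 on the opposite strand, and whether reads were counted by strand is not given in the sources used here. LTO1 was at 13.5 CPM on average with shBrca2-CM, 17.6 CPM with shControl-CM and 21.4 CPM with control medium. Between the conditioned media LTO1 had a log2 fold change of −0.34 (SE 0.37, edgeR adjusted p = 0.762), of the opposite sign to that of Ccnd1. Against control medium LTO1 fell with shBrca2-CM (−0.64, edgeR adjusted p = 0.0807) and was not called with shControl-CM (−0.29, edgeR adjusted p = 0.415).

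The other D-type cyclins differed less. Ccnd2 (cyclin D2) was at 123, 105 and 97.6 CPM with shBrca2-CM and at 82.7, 75.4 and 84.9 CPM with shControl-CM. The groups did not overlap, as was so for 19.8% of all genes tested. The log2 fold change of 0.43 (standard error 0.16, 95% confidence interval 0.09 to 0.78) was not called (edgeR adjusted p = 0.229). Ccnd3 (cyclin D3) was at 326, 371 and 358 CPM and at 318, 504 and 401 CPM, and its groups overlapped. Its log2 fold change was −0.18 with an interval of −0.54 to 0.17 (edgeR adjusted p = 0.700).

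Neither kinase and none of the 5 inhibitors was called between the conditioned media by edgeR or by DESeq2. Cdkn1b could not have been called by edgeR, since its mean normalized count of 4.997 was under the threshold. None of the 7 had an unadjusted p under 0.05, beside 13.4% of all genes tested. For Cdk4 the log2 fold change was 0.15 (95% confidence interval −0.11 to 0.42, edgeR adjusted p = 0.652). Among the inhibitors the best bounded were Cdkn1a at 0.02 (interval −0.29 to 0.33) and Cdkn2a at 0.18 (−0.09 to 0.45). Cdkn2b was at 0.04 (−0.50 to 0.58) and Cdkn2c at 0.05 (−0.43 to 0.54). These intervals still allow a change of about the threshold for the last pair. Cdk6 and Cdkn1b were too low for a close estimate. Cdk6 had 5, 16 and 18 counts with shBrca2-CM and 23, 13 and 14 with shControl-CM, which left an interval of −0.57 to 1.12. Cdkn1b had 3, 3 and 5 counts against 12, 6 and 3, with an interval of −1.57 to 1.02. Changes of a size within these intervals remain possible.

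**Figure D2:**
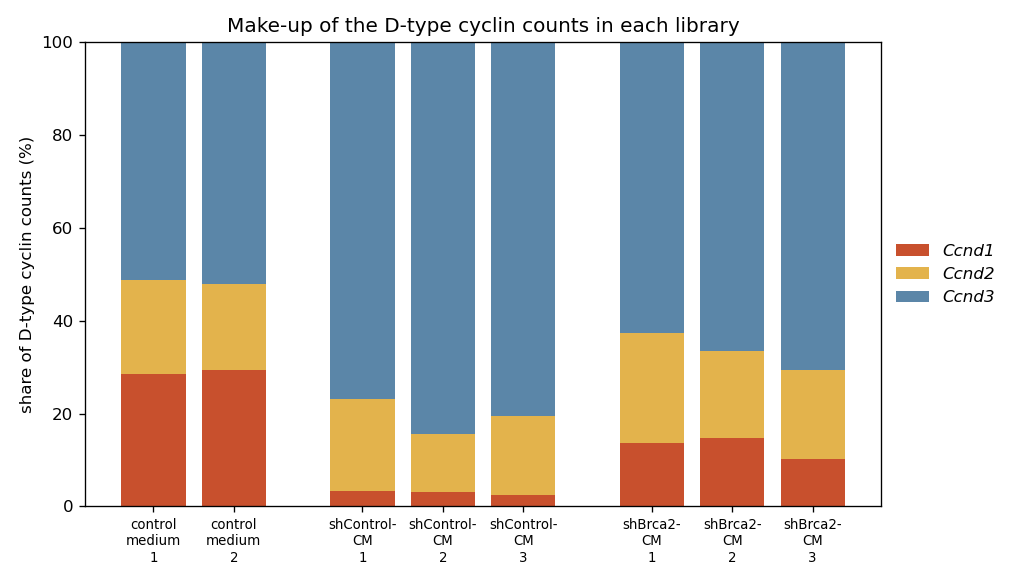
Share (%) of the summed counts of Ccnd1, Ccnd2 and Ccnd3 that fell on each gene, with 1 stacked bar per library, numbered by replicate within the 3 groups. The Ccnd1 part is near 29% with control medium, 2.46% to 3.25% in shControl-CM and 10.2% to 14.7% in shBrca2-CM.

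The make-up of the D-type cyclin counts was then compared within each library, a measure that no scaling between libraries can move. Ccnd1 took 13.7%, 14.7% and 10.2% of the D cyclin counts with shBrca2-CM (exact Clopper-Pearson 95% intervals 10.3% to 17.6%, 11.6% to 18.4% and 7.80% to 12.9%). With shControl-CM it took 3.25%, 3.07% and 2.46% (intervals 2.02% to 4.92%, 1.86% to 4.75% and 1.46% to 3.85%). With control medium it took 28.6% and 29.4% (27.1% to 30.2% and 27.8% to 31.0%). No interval of one group reached that of another. These intervals cover counting error only, and the floor of 3 counts is a set value without an error. Group means were 12.9% ± 2.39 (SD, n = 3), 2.92% ± 0.415 (SD, n = 3) and 29.0% ± 0.559 (SD, n = 2), a gap of 9.92 percentage points between the conditioned media. The exact two-sided permutation test gave p = 0.1 for each pair of groups, the smallest value these group sizes allow (0.2 after Benjamini-Hochberg adjustment over 6 share comparisons).

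Ccnd3 held the largest part of these counts in every library, 51.3% and 52.2% in control medium, 76.8% to 84.3% in shControl-CM, and 62.7% to 70.6% in shBrca2-CM. The share of Ccnd2 overlapped between all groups, at 18.4% and 20.1%, 12.6% to 19.9% and 18.8% to 23.7% in the same order. The shares are of 3′-end reads, and a share compares the same gene between libraries. For the kinases, Cdk4 took 97.8% to 99.3% of the counts of Cdk4 plus Cdk6 in shBrca2-CM, from 98.1% up to 99.0% in shControl-CM, and 99.3% in both control medium libraries. The group means differed by −0.0847 points between the conditioned media (shBrca2-CM minus shControl-CM, exact two-sided permutation p = 0.9). Minus control medium, the differences were −0.776 points for shControl-CM and −0.861 points for shBrca2-CM (exact permutation p = 0.2 for each, where 0.1 is the smallest possible, or 0.24 adjusted).

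The second question was how each conditioned medium changed these genes relative to control medium. With shControl-CM 6 of the 10 genes fell (Ccnd1, Ccnd2, Cdk4, Cdkn2a, Cdkn2b and Cdkn2c) and none rose, by edgeR or DESeq2 or at an unadjusted p under 0.05, where 37.1% of the 12086 genes tested were called, 18.2% higher and 18.9% lower. With shBrca2-CM 4 of the 10 fell (Ccnd1, Cdk4, Cdkn2b and Cdkn2c) and none rose by the same measures, where 37.8% of 12049 genes were called, 18.6% higher and 19.2% lower. Median log2 fold changes of the 10 genes were −0.59 with shControl-CM and −0.47 with shBrca2-CM, beside −0.10 and −0.05 for all genes tested. Both comparisons use the same 2 control medium libraries, so that a deviation of those libraries enters both. Their values are given side by side and are not independent of each other. With every library thinned to 655996 counts, 5 genes fell with each medium. Cdkn1a was then among them in both, Ccnd2 and Cdkn2c were no longer called with shControl-CM, and the other named genes were called as before. Without the first control medium library, 3 genes fell with shControl-CM (Ccnd1, Cdk4 and Cdkn2b), and 4 did so without the other. Cell type markers moved in the same comparisons. Of the 12 stellate markers 3 rose and 6 fell with shControl-CM, and 4 rose and 6 fell with shBrca2-CM. Among them Dcn (decorin) rose by 4.50 and 3.56 on the log2 scale (edgeR adjusted p = 8.34e-07 and 5.7e-27), and Vim (vimentin) fell by 3.38 and 2.68 (edgeR adjusted p = 1.31e-05 and 1.07e-23). Of the 6 markers of other cell types 2 rose and 1 fell with shControl-CM, and 3 rose and 1 fell with shBrca2-CM. Krt18 rose by 2.43 and 2.66 (edgeR adjusted p = 0.00722 and 6.11e-07) and the macrophage marker Cd68 by 2.004 and 1.69 (edgeR adjusted p = 0.00187 and 2.72e-04), at 7 to 31 counts per library, while Krt19 fell. Their part in the fall of the G1 genes was not tested.

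**Figure D3:**
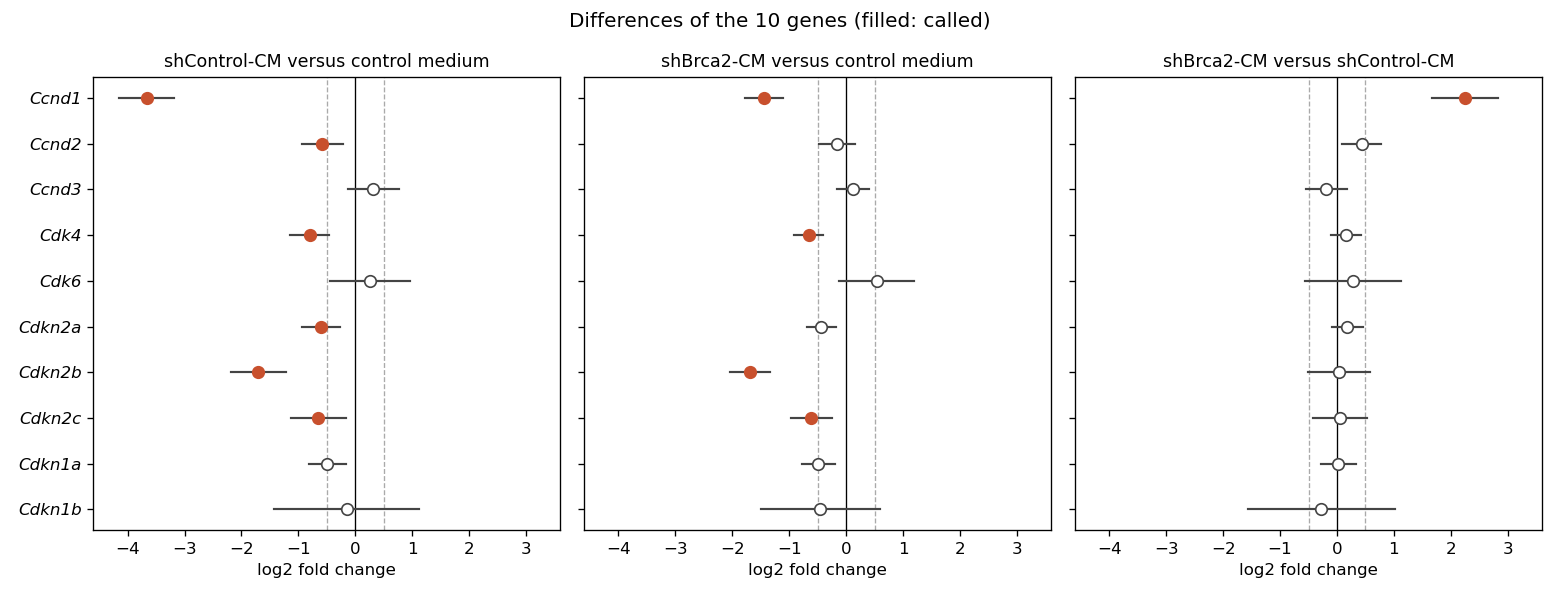
Log2 fold changes of the 10 genes in the 3 comparisons, with 95% confidence intervals from edgeR's quasi-likelihood fit. Filled points were called, and dashed lines mark the fold change threshold of 0.5 on the log2 scale. Against control medium the called points all lie to the left, and between the conditioned media Ccnd1 is the 1 called point.

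Among the cyclins, Ccnd1 fell to 0.0787 of its control level with shControl-CM (log2 −3.67 ± 0.22, SE, edgeR adjusted p = 3.3e-06) and to 0.368 of it with shBrca2-CM (−1.44 ± 0.17, SE, edgeR adjusted p = 2.98e-10). Both held in all 14 alternatives, over ranges of −3.83 to −3.51 and −1.60 to −1.25. By absolute log2 fold change it ranked 163rd of the 4488 genes called with shControl-CM and 1121st of the 4555 called with shBrca2-CM. Ccnd2 was at 115 and 126 CPM in control medium, above all 3 shControl-CM libraries and overlapping the shBrca2-CM libraries. It fell with shControl-CM (−0.58 ± 0.16, SE, edgeR adjusted p = 0.0213) and was not called with shBrca2-CM (−0.16, edgeR adjusted p = 0.434). The first call was lost in thinned libraries (edgeR adjusted p = 0.134) and without either control medium library (0.108 and 0.148). Ccnd3 was at 293 and 357 CPM in control medium and overlapped both conditioned media. Its log2 fold changes of 0.32 (95% confidence interval −0.13 to 0.77) and 0.12 (−0.17 to 0.40) were not called.

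Of the kinases, Cdk4 was at 1351 and 1547 CPM in control medium. It was at 746, 834 and 929 CPM with shControl-CM and at 958, 897 and 888 CPM with shBrca2-CM. All conditioned medium libraries thus lay below both control medium libraries, and those of the conditioned media overlapped each other. Of all genes tested, 59.9% with shControl-CM and 57.4% with shBrca2-CM did not overlap control medium. Cdk4 fell by 0.80 on the log2 scale with shControl-CM (SE 0.16, edgeR adjusted p = 0.00386) and by 0.66 with shBrca2-CM (SE 0.13, edgeR adjusted p = 3.2e-05). Each call held in all 14 alternatives. The gene Tspan31, which overlaps Cdk4 on the opposite strand, fell as well, by 0.88 with shControl-CM (edgeR adjusted p = 0.0047) and by 0.50 with shBrca2-CM (edgeR adjusted p = 0.00493). Without knowing whether counting used strand, reads of these overlapping genes cannot be told apart where they overlap. Cdk6 was at 10.1 and 10.3 CPM in control medium, within the range of the shBrca2-CM libraries (7.23, 19.9 and 16.0 CPM). With shControl-CM it was at 14.7, 12.6 and 9.51 CPM. Its log2 fold changes of 0.26 (−0.44 to 0.96) and 0.54 (−0.12 to 1.19) were not called. Without the first shBrca2-CM library, the shallowest of the series, Cdk6 was called higher with shBrca2-CM (0.79, edgeR adjusted p = 0.0715).

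Of the 3 INK4 genes among the 10, whose products restrain CDK4 and CDK6, all 3 fell with shControl-CM and 2 with shBrca2-CM. Of all genes tested, 18.9% and 19.2% were called lower in the same order. Cdkn2b (p15INK4b), a target of TGF-β signalling, changed most of the 3. It was at 152 and 159 CPM with control medium, at 58.3, 51.2 and 33.96 CPM with shControl-CM and at 46.3, 59.7 and 39.9 CPM with shBrca2-CM. The conditioned media overlapped each other and lay far below both control libraries. Cdkn2b fell by 1.71 with shControl-CM (SE 0.22, edgeR adjusted p = 3.81e-04) and by 1.69 with shBrca2-CM (SE 0.18, edgeR adjusted p = 5.07e-12) on the log2 scale, and was called in all 14 alternatives of each comparison.

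Cdkn2a and Cdkn2c moved less. The Cdkn2a locus was at 1875 and 1848 CPM with control medium, at 1089, 1328 and 1280 CPM with shControl-CM and at 1337, 1491 and 1289 CPM with shBrca2-CM. Neither conditioned medium reached the control values, and they overlapped each other. A lack of overlap with control medium held for 59.9% of all genes tested with shControl-CM and 57.4% with shBrca2-CM. With shControl-CM it fell to 0.659 of the control level (log2 −0.60 ± 0.15, SE, edgeR adjusted p = 0.0136), a call lost without the first control medium library (edgeR adjusted p = 0.12). With shBrca2-CM the log2 fold change of −0.44 (SE 0.13, edgeR adjusted p = 0.00448) stayed under the fold change threshold and was not called. Cdkn2c (p18INK4c) was at 77.2 and 85.3 CPM with control medium, at 65.4, 50.3 and 40.1 CPM with shControl-CM and at 47.7, 61.0 and 50.6 CPM with shBrca2-CM. It fell by 0.65 with shControl-CM (SE 0.22, edgeR adjusted p = 0.0446) and by 0.61 with shBrca2-CM (SE 0.18, edgeR adjusted p = 0.00468) on the log2 scale. The call with shControl-CM was lost in 6 of 14 alternatives. These were thinned libraries, the replicate number as a block (−0.48, edgeR adjusted p = 0.0524), and leaving out the second or the third shControl-CM library or either control medium library.

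Neither Cdkn1a nor Cdkn1b, the CIP/KIP genes among the 10, was called. Cdkn1a, which encodes p21 and is a main target of p53, was at 375 and 368 CPM with control medium, at 240, 283 and 276 CPM with shControl-CM and at 307, 240 and 249 CPM with shBrca2-CM. All 6 conditioned medium libraries were below both control libraries. Groups likewise did not overlap for 59.9% of all genes tested with shControl-CM and 57.4% with shBrca2-CM. Cdkn1a was close to the threshold in both comparisons. Its log2 fold changes were −0.49 in both comparisons (standard errors 0.15 and 0.14, edgeR adjusted p = 0.0303 and 0.0045), just under the fold change threshold in size, and it was called in 5 of 14 alternatives with shControl-CM and in 3 of 14 with shBrca2-CM. Cdkn1b was at 7.99 and 3.22 CPM in the control libraries, a wider spread than any of its differences. Its intervals of −1.42 to 1.12 and −1.49 to 0.59 leave its direction undetermined.

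The steps after cyclin D were read from gene lists, beside the same shares of all genes. Of 12 measured genes in a list of the cyclin E and CDK2 step, which also holds the INK4 gene Cdkn2d, 2 fell with shBrca2-CM relative to shControl-CM and none rose (median log2 fold change −0.21). Those 2 were Ccne1 (cyclin E1, −0.79 ± 0.18, SE, edgeR adjusted p = 0.0408), which drives CDK2, and Cdkn2d (p19INK4d, −0.69, edgeR adjusted p = 0.0794), which acts on CDK4 and CDK6, so that of the genes of the CDK2 step itself Ccne1 was the 1 called. Ccne1 averaged 39.8 ± 4.47 CPM (SD, n = 2) in control medium, 81.7 ± 8.23 CPM (n = 3) under shControl-CM, and 46.4 ± 4.03 CPM (n = 3) under shBrca2-CM. It was thus highest in the group where Ccnd1 was lowest. The call for Ccne1 held in 10 of 15 alternatives and that for Cdkn2d in 5 of 15. Against control medium Ccne1 rose with shControl-CM (1.03, edgeR adjusted p = 0.00305) and was not called with shBrca2-CM (0.21, edgeR adjusted p = 0.423). With shControl-CM, 1 gene of the step rose and 2 fell (median −0.04), and with shBrca2-CM none rose and 4 fell (median −0.41, or −0.29 with genes at the floor set to their bound). Cdkn1c (p57), the CIP/KIP gene outside the 10, had 1 to 6 counts in the conditioned medium libraries against 40 and 50 in control medium. It fell with shControl-CM (−1.67, edgeR adjusted p = 0.0174, held in 11 of 14 alternatives), and with shBrca2-CM, where all its libraries were at or under the floor, it was at least 1.99-fold lower (edgeR adjusted p = 0.00706, held in 13 of 14). Cdkn2d fell with shBrca2-CM (−0.61, edgeR adjusted p = 0.00288) and was not called with shControl-CM (0.10, edgeR adjusted p = 0.686). Ccnh, the cyclin of the CDK-activating kinase, fell with both (−1.24 and −1.56, edgeR adjusted p = 0.0164 and 6.53e-07). Cdk2 itself was not called in any comparison (−0.28, −0.17 and −0.48 for shBrca2-CM versus shControl-CM, shControl-CM versus control medium and shBrca2-CM versus control medium). Ccne2 had at most 5 counts in any conditioned medium library and was not called. Between the conditioned media Ccne2, Cdkn1c and Rb1 were under the mean count threshold and could not have been called.

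**Figure D4:**
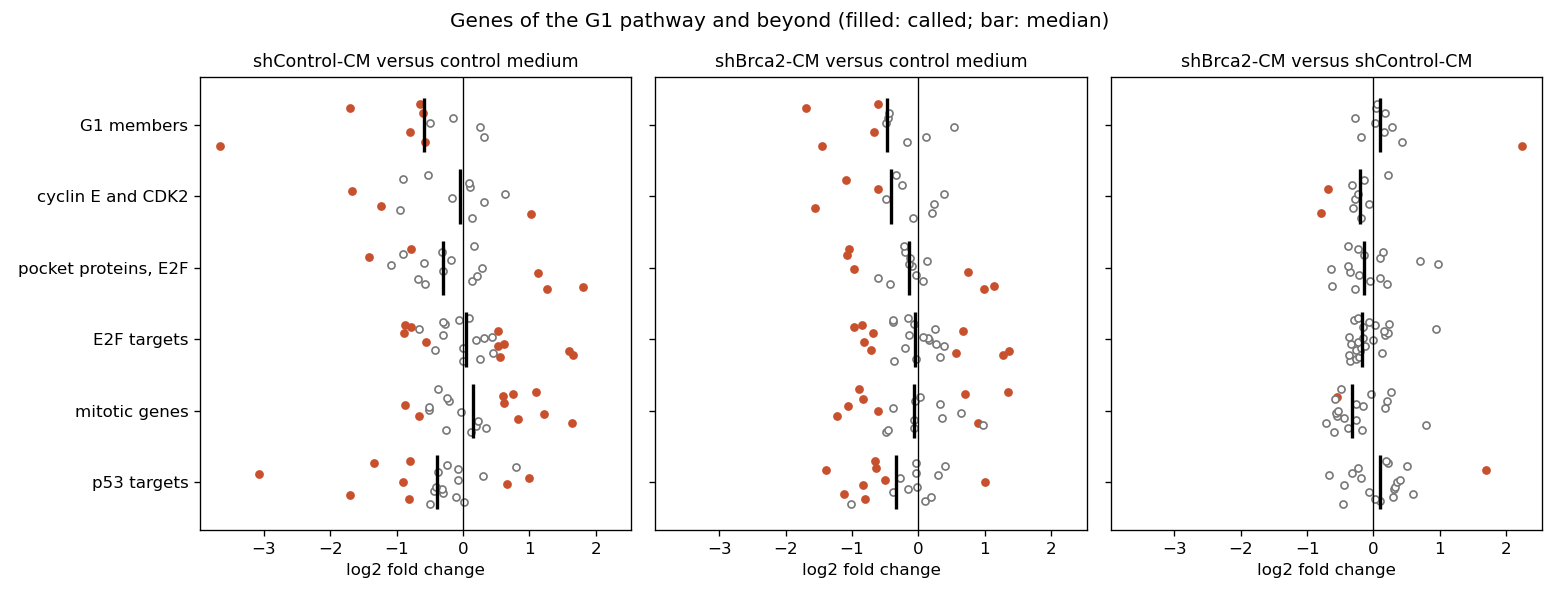
Log2 fold changes of the genes tested in 6 lists, in the 3 comparisons, with 1 point per gene and a vertical bar at the median of all tested genes of the list. Filled points were called, and genes with 3 or fewer counts in every library of a group are not drawn. Against control medium every list after the 10 G1 genes holds called genes, and between the conditioned media 5 points are filled, those of Ccnd1, Ccne1, Cdkn2d, Prc1 and Psrc1.

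Of 17 pocket proteins and E2F factors, none was called between the conditioned media by edgeR or DESeq2, and 0 had an unadjusted p under 0.05 (median −0.15). With shControl-CM 3 rose and 2 fell relative to control medium (median −0.30), and with shBrca2-CM 3 rose and 4 fell (median −0.14). The 3 that rose in each were the factors E2f1, E2f2 and E2f7. E2f1, an activator of S phase genes, averaged 92.1 ± 13.9 CPM (SD, n = 2) in control medium, 223 ± 1.77 CPM (n = 3) under shControl-CM, and 179.9 ± 36.5 CPM (n = 3) under shBrca2-CM. It rose by 1.27 and 0.99 on the log2 scale (edgeR adjusted p = 4.46e-04 and 8.33e-07), and E2f2 rose by 1.81 and 1.15 (edgeR adjusted p = 0.001 and 0.00411). Rb1, the retinoblastoma gene, had 1 to 7 counts in the conditioned medium libraries against 30 and 38 in control medium. It fell with shControl-CM (−1.42, edgeR adjusted p = 0.0693), a call that held in 6 of 14 alternatives and whose direction turned in thinned libraries (0.71). With shBrca2-CM all its libraries were at or under the floor, and it was called lower (edgeR adjusted p = 0.0305, a call that held in 8 of 13 alternatives). The control mean of Rb1 was 1.5 times the floor of the shallowest shBrca2-CM library, again a ratio without sampling error. Its relative Rbl1 (p107) fell with shBrca2-CM (−1.07, edgeR adjusted p = 1.65e-04) and was not called with shControl-CM (−0.90, edgeR adjusted p = 0.128).

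Of 24 E2F target genes of S phase entry, none was called between the conditioned media by edgeR or DESeq2, and 2 of the 24 had an unadjusted p under 0.05, beside 13.4% of all genes tested (median −0.18). With shControl-CM 6 rose and 4 fell relative to control medium (median 0.05), and with shBrca2-CM 4 rose and 5 fell (median −0.05), so that genes of the list moved both ways in each medium. Chaf1a, which loads histones on new DNA, rose by 1.65 and 1.27 (edgeR adjusted p = 5.01e-04 and 5.36e-10), while Rrm1, a subunit of ribonucleotide reductase, fell with both (−0.79 and −0.97, edgeR adjusted p = 0.00316 and 2.75e-07). Of 20 mitotic genes, 1 was called between the conditioned media, Prc1, lower with shBrca2-CM (−0.56, edgeR adjusted p = 0.0995, held in 6 of 15 alternatives). The median of that list was −0.33, and 8 of its genes had an unadjusted p under 0.05, all 8 with a lower value in shBrca2-CM, beside 6.68% of all genes tested that were lower at that p. Against control medium 7 rose and 2 fell with shControl-CM (median 0.16), and 3 rose and 5 fell with shBrca2-CM (median −0.06). Ccnb1 (cyclin B1) rose with both (1.64 and 0.89, edgeR adjusted p = 0.00128 and 0.00179), and Cdc20, an activator of the anaphase-promoting complex, fell with both (−0.66 and −1.23, edgeR adjusted p = 0.0185 and 4.99e-09). Mki67, the gene of the proliferation marker Ki-67, averaged 90.0 ± 7.85 CPM (SD, n = 2) in control medium, 139 ± 21.3 CPM (n = 3) under shControl-CM, and 114 ± 16.2 CPM (n = 3) under shBrca2-CM. It rose with shControl-CM (0.62, edgeR adjusted p = 0.0279, held in 9 of 14 alternatives) and was not called with shBrca2-CM (0.33, edgeR adjusted p = 0.0985) or between the conditioned media (−0.26, edgeR adjusted p = 0.573).

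Other p53 targets were set beside Cdkn1a. Of 24 in the table, 21 could be tested between the conditioned media, where 1 rose with shBrca2-CM (median 0.10). With shControl-CM 2 rose and 6 fell relative to control medium (median −0.39, or −0.29 with genes at the floor set to their bound). With shBrca2-CM 1 rose and 8 fell (median −0.33, or −0.09 with such bounds). The gene called between the conditioned media was Psrc1, a spindle protein. Psrc1 averaged 72.1 ± 0.196 CPM (SD, n = 2) in control medium, 8.63 ± 0.912 CPM (n = 3) under shControl-CM, and 28.0 ± 5.56 CPM (n = 3) under shBrca2-CM. Its order of groups was that of Ccnd1, with log2 fold changes of 1.70 between the conditioned media and −3.07 and −1.40 against control medium (edgeR adjusted p = 0.0139, 1.83e-05 and 1.17e-07). Mdm2, which encodes the ubiquitin ligase that degrades p53, rose by 0.66 and 1.01 (edgeR adjusted p = 0.0141 and 5.64e-07), and Ccng1 (cyclin G1) fell by 1.70 and 1.12 (edgeR adjusted p = 0.00311 and 8.34e-05). Trp53, the p53 gene, was not called in any comparison (0.15, −0.28 and −0.15).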

How the data were processed

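The authors deposited raw counts of 3′-end reads per gene, 1 column per library, from a variation of MARS-seq with Illumina sequencing. The submitters' processing notes name bcl2fastq, cutadapt, STAR 2.4.2a, HTSeq, DESeq2 and the build mm10. Strand setting and the treatment of molecular identifiers are not given in the sources used here. A further 1 column of per-sample values could be tied to none of the labels and was not used.

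Each pair of groups was fitted alone over the whole table with edgeR 4.0.16 in R 4.3.3 (TMM, genes with at least 10 counts over the libraries fitted, quasi-likelihood test), and p-values were Benjamini-Hochberg adjusted over all genes tested. The thresholds (adjusted p 0.1, log2 fold change 0.5 in size, mean normalized count 5) follow the study's methods. The study used DESeq2, which is an alternative here (1.42.0). Group means in CPM use TMM factors over all 8 libraries. Tests were also run on simulated counts, and the outcome is not reported here. Libraries of 1 group differed by more than sampling noise (chi-square per degree of freedom 1.65 to 8.35).

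The 10 genes, the lists and the rule for named genes were chosen with earlier results of these data known. The rule named all 10 genes, up to 4 called genes with the largest change per list and comparison, and Ccne1, Ccne2, Cdk2, Rb1, Rbl1, E2f1, Trp53, Mdm2, Myc and Mki67 whatever their values. E2f7, Krt18, Krt19, Sox9, LTO1, Tspan31 and Kdr were added after their values were seen, as was the choice of promoters. Lists were described by counts and medians, without set tests. Alternatives were other scalings, filters and thresholds, DESeq2's likelihood ratio test, the 3 groups fitted together, the replicate number as a block, thinned libraries and each library left out in turn.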

Additional observations from a re-analysis of the deposited data

How the results depend on the processing

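Over the alternatives, 392 of 428 values of the 10 genes kept their direction and their side of the thresholds, 10 lost and 9 gained a call, and 17 turned direction, all 17 in uncalled values. Of 2110 values of other listed genes 1893 held, 198 lost and 7 gained a call, and 12 turned. The number of the 10 genes called was 1 throughout between the conditioned media, 3 to 6 with shControl-CM versus control medium when 1 library was left out (3 without the first control medium library) and 7 with total counts, and 4 to 6 with shBrca2-CM (6 without its first library). Total counts in place of TMM moved the median of all genes by 0.112 between the conditioned media and by −0.117 with shControl-CM (log2). The split of called genes then went from 174 higher and 171 lower to 250 and 120, and from 2200 and 2288 to 1798 and 2671, with no turned direction among the 10 genes.

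Genes called between the conditioned media numbered 345, 206 at an adjusted p under 0.05, and 128 to 976 when 1 library was left out (175, 128 and 160 without shBrca2-CM replicates 1, 2 and 3, and 976 and 169 without shControl-CM replicates 1 and 2). With shControl-CM versus control medium 4488 became 2812 in thinned libraries and 1901 to 5157 when 1 library was left out (1901 and 2269 without the first and the second control medium library). Where an arm was left with 1 library, that library was assumed to vary like the others.

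Turned values between the conditioned media were those of Cdkn1a (−0.0020 with DESeq2's size factors and −0.0022 with its likelihood ratio test, −0.097 to 0.089 with 1 library left out), Cdkn2c (−0.012 thinned, −0.13 to 0.25), Cdkn2b (−0.18 to 0.20), Cdkn1b (−0.69 to 0.20), Rb1 (0.049 with total counts, 0.14 with the replicate block, −0.38 to 0.21), Rbl1 (0.065 with the block, −0.49 to 0.69), Myc (−0.11 to 0.26) and Ccne2 (−0.17 to 0.49). With shControl-CM versus control medium they were those of Cdkn1b (0.24 with the block, 0.64 thinned, −0.66 to 0.68), Cdk2 (0.10 thinned, −0.35 to 0.063) and Rb1 (0.71 thinned). With shBrca2-CM versus control medium they were those of Cdkn1b (0.53 thinned, −0.91 to 0.37), Ccnd3 (−0.017 to 0.27) and Trp53 (−0.31 to 0.046). The causes were not tested.

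Same-numbered libraries did not deviate together (correlations of deviations −0.05, 0.02 and 0.14 between the conditioned media), so the numbers were not taken as pairs. With the replicate block 1, 6 and 4 of the 10 genes were called (1, 5 and 4 shared with the unblocked fit; with shControl-CM the block lost Cdkn2c and added Cdkn1a), and 311, 4512 and 3850 of all genes. Low counts limit Cdk6, Cdkn1b, Rb1 and Ccne2.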

Other observations

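A list of 23 genes in the table known to regulate the G1 genes was described in the same way. Between the conditioned media 22 were tested, and 1 rose and 3 fell with shBrca2-CM (median log2 fold change 0.11), where 1.58% of all genes tested were called higher and 1.55% lower. Klf4, a transcription factor known to act on Cdkn1a and Ccnd1, averaged 80.6 ± 9.95 CPM (SD, n = 2) in control medium, 36.2 ± 3.44 CPM (n = 3) under shControl-CM, and 79.8 ± 14.6 CPM (n = 3) under shBrca2-CM, with a log2 fold change of 1.14 between the conditioned media (edgeR adjusted p = 0.0105, called in all 15 alternatives). The 3 that fell were the AP-1 subunits Fosl1 (−0.73, edgeR adjusted p = 0.0235) and Junb (−0.63, edgeR adjusted p = 0.0197) and the helix-loop-helix inhibitor Id3 (−0.80, edgeR adjusted p = 0.00654). Fosl1 and Junb were called in 12 of 15 alternatives and Id3 in all 15.

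Against control medium 4 of the 23 rose and 8 fell with shControl-CM (median −0.28, or −0.17 with genes at the floor set to their bound), and 4 rose and 6 fell with shBrca2-CM (median −0.14, or −0.05). Of all genes tested 18.2% were higher and 18.9% lower with shControl-CM, and 18.6% and 19.2% with shBrca2-CM. Id2 averaged 154 ± 32.0 CPM (SD, n = 2) in control medium, 15.2 ± 5.55 CPM (n = 3) under shControl-CM, and 19.8 ± 4.33 CPM (n = 3) under shBrca2-CM, and fell by 3.36 and 2.97 on the log2 scale (edgeR adjusted p = 3.02e-05 and 2.13e-18). Id3 fell by 1.94 and 2.77 (edgeR adjusted p = 3.69e-05 and 8.31e-24). Bmi1, a Polycomb subunit known to repress Cdkn2a, averaged 23.3 ± 1.40 CPM (SD, n = 2) in control medium, 5.39 ± 3.17 CPM (n = 3) under shControl-CM, and 6.19 ± 1.13 CPM (n = 3) under shBrca2-CM, and fell by 2.11 and 1.93 (edgeR adjusted p = 0.0038 and 5.52e-06). Myc, a known activator of Cdk4, averaged 57.5 ± 8.34 CPM (SD, n = 2), 25.0 ± 5.86 CPM (n = 3) and 26.7 ± 7.05 CPM (n = 3) in the same order, and fell by 1.21 and 1.11 (edgeR adjusted p = 0.00505 and 3.07e-05).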
